A study of Rattus norvegicus with 13 samples.

Results

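The genes described here encode the enzymes that write, maintain and remove methyl groups on cytosine, together with the factors that recruit them. They are *Dnmt1*, *Dnmt3a*, *Dnmt3b*, *Uhrf1*, *Uhrf2*, *Tet1*, *Tet2*, *Tet3* and *Tdg*. They were found in the table by gene symbol, and the choice of these genes was made with earlier results of these data known. All 9 were among the 14790 genes of the deposited table. RNA-seq had been performed on mammary epithelial cells of Wistar-Furth rats at 6 weeks of age, named within WOS, and at 10 weeks of age, named outside WOS, where WOS is the window of susceptibility to mammary carcinogens. There were 6 rats at 6 weeks and 7 rats at 10 weeks, with 1 library per rat. Neither age was given any treatment in the labels. The glands had been digested with collagenase. The labels describe mammary ductal fragments held back on a nylon filter, and the paper's methods describe differential centrifugation for its RNA-seq, giving ductal organoids that also hold fibroblasts and immune cells. Either way the preparation enriches for epithelium and does not purify a single cell type.

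Methylation of cytosine in CpG dinucleotides is copied at DNA replication by DNMT1, which UHRF1 brings to the newly made, half-methylated DNA. DNMT3A and DNMT3B place methyl groups at sites that carried none. The TET enzymes oxidise the methyl group and TDG, a DNA glycosylase, cuts out the oxidised base for base excision repair. In the mammary gland, ducts elongate and branch during puberty by rapid division of epithelial cells, and every round of division needs its methylation pattern to be copied.

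For 8 of the 9 genes, RefSeq gave the sequence from 250 bases before to 50 bases after at least 1 transcription start on the GRCr8 assembly, 15 windows in all. The windows of the 3 genes that changed with age are shown here because *Dnmt1* and *Uhrf1* moved with genes of DNA replication and *Tet2* moved the other way. For *Uhrf1*, with 3 annotated starts, the window of the third start is shown because it alone of the 3 held a match to the motif described next, and the others held 8 and 13 CpG dinucleotides. The windows lie at chr8:27762792-27763091 on the minus strand for *Dnmt1*, at chr9:1222936-1223235 on the plus strand for *Uhrf1* and at chr2:224746137-224746436 on the minus strand for *Tet2*. Each is printed from the 5′ to the 3′ end of the gene's strand, and capitals mark matches to a motif of the E2F type.
Dnmt1: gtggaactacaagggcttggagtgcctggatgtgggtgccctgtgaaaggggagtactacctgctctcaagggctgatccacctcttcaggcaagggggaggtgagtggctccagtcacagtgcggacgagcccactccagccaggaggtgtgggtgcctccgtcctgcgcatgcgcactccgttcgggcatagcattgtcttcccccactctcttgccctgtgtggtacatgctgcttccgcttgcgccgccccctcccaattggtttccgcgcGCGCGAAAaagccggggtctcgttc
Uhrf1: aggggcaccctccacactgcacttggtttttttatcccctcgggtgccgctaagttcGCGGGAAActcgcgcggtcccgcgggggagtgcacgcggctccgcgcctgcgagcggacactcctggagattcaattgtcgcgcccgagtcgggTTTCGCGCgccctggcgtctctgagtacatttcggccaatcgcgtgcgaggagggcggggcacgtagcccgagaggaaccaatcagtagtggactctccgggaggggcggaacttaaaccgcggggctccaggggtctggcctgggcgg
Tet2: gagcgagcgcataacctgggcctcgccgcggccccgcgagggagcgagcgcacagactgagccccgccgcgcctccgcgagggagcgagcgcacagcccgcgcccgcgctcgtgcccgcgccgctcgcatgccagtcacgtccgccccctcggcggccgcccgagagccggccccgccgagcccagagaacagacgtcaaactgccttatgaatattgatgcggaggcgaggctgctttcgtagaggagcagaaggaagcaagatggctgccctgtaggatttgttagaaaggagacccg
E2F factors drive many genes of S phase. The motif was searched on both strands in 4 spellings of 8 bases, namely TTTGGCGC or TTTGCCGC or TTTCGCGC or TTTCCCGC, and was chosen after the windows had been read. In the *Dnmt1* window GCGCGAAA began 25 bases after the start. The *Uhrf1* window held GCGGGAAA and TTTCGCGC, 193 and 99 bases before the start. Of all 33469 promoter windows of the assembly, 2.14% held a match, and among the 15 windows of the methylation genes 2 did. Because the motif was chosen with these windows in view, the 2 shares are a description, and a role of E2F was not tested. No spelling occurred in the *Tet2* window, which says only that these letters are not in it. The *Tet2* window held 39 CpG dinucleotides, the *Uhrf1* window 35 and the *Dnmt1* window 17, against a median of 7 over all windows. More CpG dinucleotides than in these were found in 3.24%, 5.43% and 27.5% of all windows, respectively.

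The values appear to be RSEM gene counts that had been scaled per library and rounded, and are called normalized counts here. They summed to between 13261906 and 15659533 per rat. Values of different genes are not comparable because they are not divided by gene length. Epithelial markers were detected in every rat. The summed normalized counts of 6 luminal genes were 36510 to 52697 at 6 weeks and 49672 to 64471 at 10 weeks. Those of 5 of 6 listed basal genes were 9998 to 17137 and 12256 to 21460. Of these luminal and basal genes, *Epcam* and *Cdh1* were higher at 10 weeks. The 5 of 6 fibroblast genes in the table summed to 105230 to 220582 at 6 weeks and to 18702 to 54383 at 10 weeks, with no overlap, and *Col1a1*, *Col3a1* and *Lum* were higher at 6 weeks. The red blood cell genes in the table, *Hbb* and *Alas2*, were higher at 6 weeks, at 1242 to 3138 against 181 to 828. The sums overlapped for 2 lymphocyte genes (92 to 266 against 137 to 394, *Cd79b* higher at 6 weeks), 5 macrophage genes (392 to 892 against 395 to 1019, none changed), 4 adipocyte genes (1474 to 2387 against 1373 to 2628, *Adipoq* and *Plin1* higher at 6 weeks), 4 endothelial genes (4822 to 8619 against 4528 to 7297, none changed) and 3 mast cell genes (1677 to 2593 against 1476 to 3770, *Cpa3* and *Ms4a2* higher and *Kit* lower at 6 weeks). No marker in the table was at 0 in every rat. With age means subtracted, the first principal component of the remaining variation held 28.3% of it, and its largest gap parted rats 75 and 80 at 6 weeks and rats 78, 81 and 83 at 10 weeks from the other 8. No label names this parting, so it is called here the smaller and the larger set of rats. Values with and without the smaller set are given beside the results.

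For every gene, log2(normalized count + 1) was compared between the ages with limma, and a gene was called differentially expressed (DE) at an adjusted p (Benjamini-Hochberg over all genes) under 0.05. Folds are on that log2 scale, as 6 weeks over 10 weeks. Of the 9 methylation genes, *Dnmt1* and *Uhrf1* were higher at 6 weeks, *Tet2* was lower, and 6 were not DE. Among all 14790 genes, calls of higher at 6 weeks made up 8.71%, of higher at 10 weeks 7.39% and of either direction 16.1%, and a count of 3 of 9 does not set the methylation genes apart from that background. The median log2 fold change of the 9 genes was 0.18, and that of all genes was 0.03. All 9 genes had at least 10 normalized counts in every rat, so none entered through 1 age only. In such bulk libraries, fewer cells of a type cannot be told apart from less RNA of the gene per cell.

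**Figure D1:**
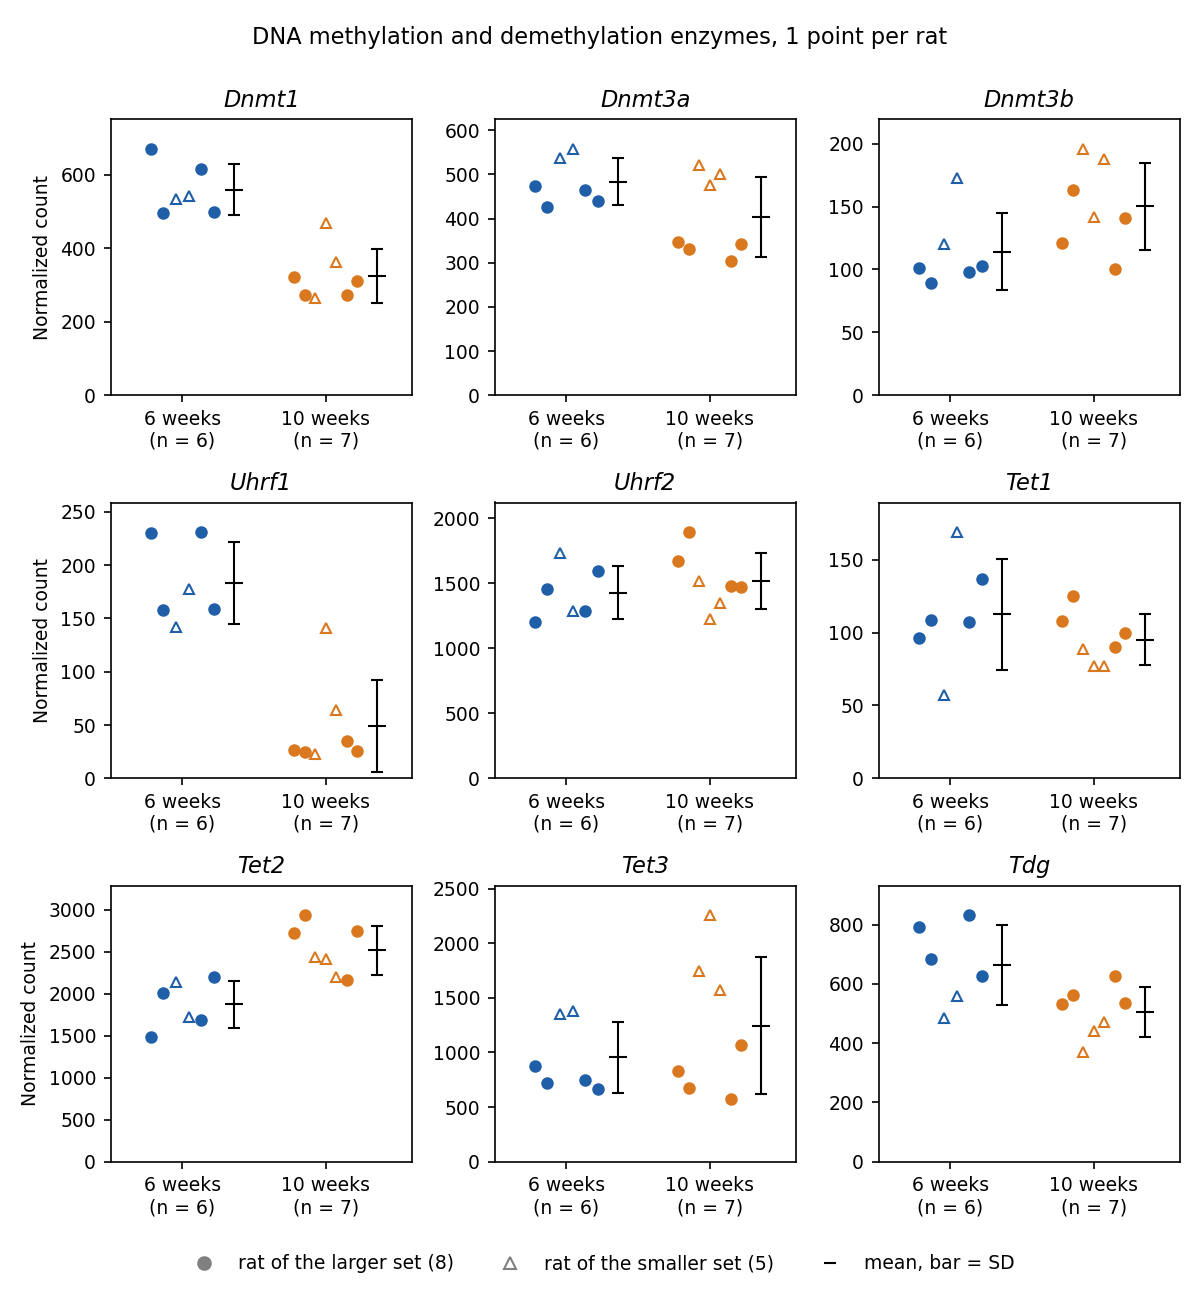
Normalized counts (y axis, each panel from 0) of the 9 methylation and demethylation genes in every rat at 6 and 10 weeks of age (x axis). Each point is 1 rat, the marker shape gives the smaller or the larger set of rats, and the bars give the mean ± SD. The *Dnmt1* and *Uhrf1* points at 6 weeks all lie above those at 10 weeks, the *Tet2* points lie mostly below, and the *Tet3* points part by the set of rats rather than by age.

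*Dnmt1*, the maintenance methyltransferase (ENSRNOG00000039859), was higher within WOS. At 6 weeks the normalized count was 671, 496, 535, 543, 615 and 498 in rats 70, 71, 75, 80, 84 and 86. At 10 weeks it was 322, 272, 264, 470, 364, 273 and 312 in rats 72, 74, 78, 81, 83, 85 and 87. Every 6-week rat was above every 10-week rat, and the nearest 10-week rat was rat 81. The means were 559.7 ± 69.6 (SD, n = 6) and 325 ± 73.0 (SD, n = 7). The log2 fold change was 0.80 ± 0.14 (SE), a 1.74-fold difference, with limma's adjusted p = 0.00324. Leaving out any 1 of the 13 rats gave log2 fold changes of 0.75 to 0.89, all of them DE. The larger set alone gave a log2 fold change of 0.94 with limma's adjusted p = 0.005, and the smaller set, of 2 and 3 rats, 0.60 with limma's adjusted p = 0.445.

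*Uhrf1*, which recognises half-methylated CpG and recruits DNMT1 (ENSRNOG00000048411), was the gene of the 9 with the largest change. The normalized count at 6 weeks was 230, 158, 142, 178, 231 and 159 in rats 70, 71, 75, 80, 84 and 86. At 10 weeks it was 27, 25, 23, 141, 64, 35 and 26 in rats 72, 74, 78, 81, 83, 85 and 87. The ages did not overlap, but rat 81 at 10 weeks came within 1 normalized count of rat 75 at 6 weeks. In both libraries 1 estimated count appeared to be worth more than 1 normalized count, at 1.30 and 1.5. This was inferred from which whole numbers from 1 to 30 occur in each library. The remaining 10-week rats were between 23 and 64. The means were 183 ± 38.5 (SD, n = 6) and 48.7 ± 43.1 (SD, n = 7). The log2 fold change was 2.19 ± 0.38 (SE), a 4.55-fold difference, with limma's adjusted p = 0.00242. It was between 2.06 and 2.49 and DE when any 1 rat was left out. Among the 8 rats of the larger set the counts were 158 to 231 against 25 to 35, for a log2 fold change of 2.73 with limma's adjusted p = 0.000241. In the smaller set they were 142 to 178 against 23 to 141, with a log2 fold change of 1.40 and limma's adjusted p = 0.493. All 6-week rats lay above all 10-week rats for 2 of the 9 genes, *Dnmt1* and *Uhrf1*, and for 3.29% of all genes.

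*Uhrf2*, the paralogue of *Uhrf1* that does not take its place in maintenance (ENSRNOG00000011308), did not pass the test. Its normalized count had a lowest, median and highest value of 1206, 1373.5 and 1732 at 6 weeks and of 1227, 1477 and 1894 at 10 weeks. The ages overlapped over nearly the whole range. On the log2 scale the fold change was -0.09 ± 0.12 (SE), with a 95% interval of -0.35 to 0.18 and limma's adjusted p = 0.673. In the larger set it was -0.23 and in the smaller set 0.14, neither of them DE.

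*Dnmt1* and *Uhrf1* moved with age in the same direction as the genes of S phase and mitosis. Of 15 such genes, helicase subunits, nucleotide synthesis enzymes, cyclins and mitotic kinases among them, 13 were higher at 6 weeks, beside 8.71% of all genes, none was lower and *Mcm7* and *Tk1* were not DE, with log2 fold changes of 0.24 and 0.46. The median log2 fold change was 2.09. *Bub1*, a kinase of the mitotic checkpoint, had 157 to 370 normalized counts at 6 weeks and 34 to 64 at 10 weeks, a log2 fold change of 2.42 ± 0.22 (SE). The log2 fold changes of *Ccnb1*, *Top2a* and *Mki67*, a mitotic cyclin, a topoisomerase and a proliferation marker, were 3.14, 3.05 and 2.49. The mean log2(normalized count + 1) of the list was 7.45 to 8.56 at 6 weeks and 5.41 to 7.13 at 10 weeks. The highest 10-week rat was rat 81 and the next rat 83, at 6.15, which were also the 10-week rats with the highest *Dnmt1* and *Uhrf1*. Rat 85, at 6.11, was close to rat 83 on the list but had *Dnmt1* at 273 and *Uhrf1* at 35. At 6 weeks rats 84 and 70 were highest on the list, at 8.56 and 8.38, and for both genes. Rat 80 was lowest on the list, at 7.45, but had *Dnmt1* at 543 and *Uhrf1* at 178. Rat 86, at 8.21 on the list, had less of both, at 498 and 159. The part of cell division or of the fibroblast markers in the age difference of *Dnmt1* and *Uhrf1* was not tested.

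**Figure D2:**
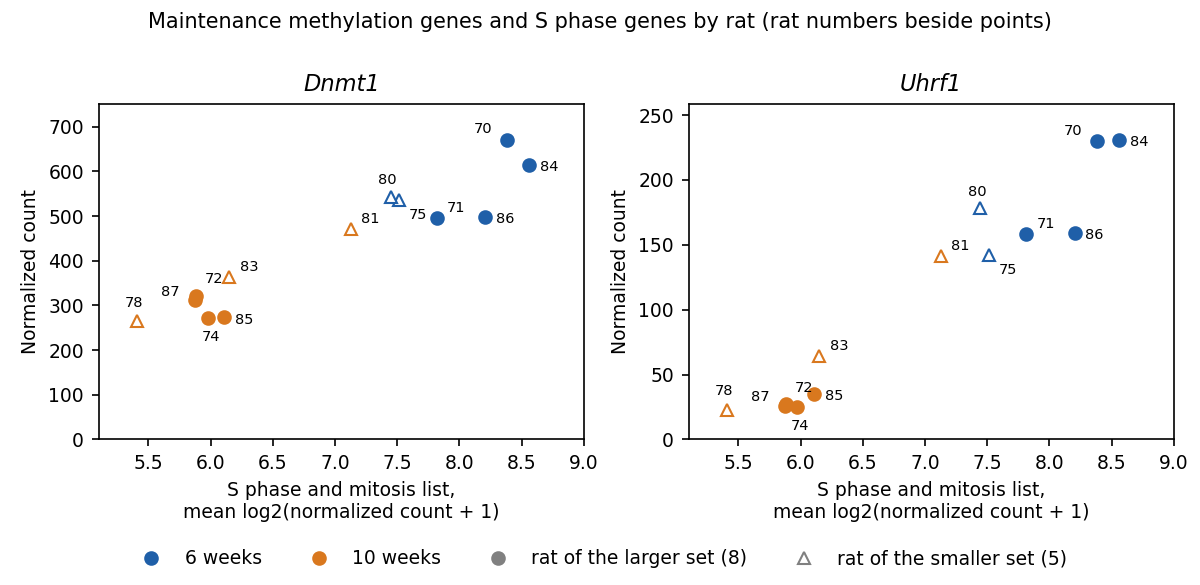
Normalized count of *Dnmt1* and *Uhrf1* (y axis) against the mean log2(normalized count + 1) of 15 S phase and mitosis genes (x axis), each point 1 rat with its number beside it, coloured by age, with open triangles for the smaller set of rats. Rat 81, at 7.13, is the 10-week rat nearest to the 6-week rats on both axes.

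*Dnmt3a* and *Dnmt3b*, the de novo methyltransferases, did not pass the test, and their estimates had opposite signs. For *Dnmt3a* (ENSRNOG00000026649) the lowest, median and highest normalized counts were 426, 468.5 and 558 at 6 weeks and 305, 348 and 522 at 10 weeks. Every value at 6 weeks exceeded the 10-week median, but the ages overlapped. The means were 483 ± 53.3 (SD, n = 6) and 404 ± 91.6 (SD, n = 7), for a log2 fold change of 0.28 ± 0.15 (SE) with limma's adjusted p = 0.214. This value depended on the set of rats. In the larger set *Dnmt3a* was at 426 to 473 against 305 to 348, and in the smaller set at 538 to 558 against 475 to 522. The ages overlapped in neither set. This is a description of few rats, 4 and 4 in the larger set and 2 and 3 in the smaller. The sets were drawn from the expression values, and the share of all genes without overlap inside them was not counted. With the set as a term, which was added after the data had been seen and, being formed from the variation within the ages, narrows it, the log2 fold change was 0.33 with limma's adjusted p = 0.0161, and in the larger set alone it was 0.44 with limma's adjusted p = 0.0199.

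*Dnmt3b* (ENSRNOG00000010625) had a lowest, median and highest normalized count of 89, 102 and 173 at 6 weeks and of 100, 142 and 196 at 10 weeks. The ages overlapped. The means were 114 ± 30.6 (SD, n = 6) and 150.1 ± 34.7 (SD, n = 7). The log2 fold change was -0.40 ± 0.19 (SE), with a 95% interval of -0.80 to 0.01 and limma's adjusted p = 0.166. In the larger set it was -0.40 and in the smaller set -0.27, neither of them DE. With the set as a term, the fit given for *Dnmt3a*, the log2 fold change was -0.35 and not DE (limma's adjusted p = 0.0828). *Dnmt3b* was DE with the first residual component in the model (limma's adjusted p = 0.0486). Like the set, this component was taken from differences among rats of equal age, so fitting it lowers the remaining spread. *Dnmt3b* was also DE with limma's sample quality weights (-0.44, limma's adjusted p = 0.0295).

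Of the 3 TET dioxygenases, *Tet2* (ENSRNOG00000023579) was DE, and it was lower within WOS. The normalized count at 6 weeks was 1486, 2011, 2141, 1725, 1682 and 2193 in rats 70, 71, 75, 80, 84 and 86. At 10 weeks it was 2720, 2934, 2431, 2407, 2204, 2162 and 2747 in rats 72, 74, 78, 81, 83, 85 and 87. The ages overlapped in a single pair, rat 86 at 6 weeks and rat 85 at 10 weeks, and 5 of the 6 rats at 6 weeks were below every 10-week rat. The means were 1873 ± 283 (SD, n = 6) and 2515 ± 292 (SD, n = 7). The log2 fold change was -0.43 ± 0.12 (SE), which is 1.35-fold more at 10 weeks, with limma's adjusted p = 0.0309. This call rested on single rats. Its log2 fold change was between -0.48 and -0.37 when 1 rat was left out, but it was DE in 7 of the 13 fits. Without rat 70, 80, 84, 72, 74 or 87 limma's adjusted p was 0.0726, 0.0529, 0.0713, 0.0630, 0.0619 and 0.0646, respectively. In the larger set the log2 fold change was -0.53 with limma's adjusted p = 0.0478, and in the smaller set -0.29 with limma's adjusted p = 0.522.

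*Tet1* (ENSRNOG00000000277) had a lowest, median and highest normalized count of 57, 108 and 169 at 6 weeks and of 77, 90 and 125 at 10 weeks. The 6-week rats spread more widely than the 10-week rats and held both the lowest and the highest value. On the log2 scale the difference was 0.18 ± 0.22 (SE), with a 95% interval of -0.28 to 0.65 and limma's adjusted p = 0.592. In the larger set it was 0.08 and in the smaller set 0.28, neither of them DE.

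*Tet3* (ENSRNOG00000011387) did not differ by age beyond its spread, with a log2 fold change of -0.29 ± 0.33 (SE), a 95% interval of -1.0 to 0.43 and limma's adjusted p = 0.587. Its normalized count had a lowest, median and highest value of 661, 810.5 and 1379 at 6 weeks and of 574, 1065 and 2258 at 10 weeks. In the smaller set of rats it was 1350 to 1379 at 6 weeks and 1569 to 2258 at 10 weeks, above every rat of the larger set, at 661 to 873 and 574 to 1065. *Dnmt3a* was likewise above the larger set in every rat of the smaller set. This is a description with no test, since the sets were drawn from the expression values themselves.

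*Tdg*, the glycosylase that removes oxidised methylcytosine (ENSRNOG00000027124), did not pass the test over all rats. The normalized count had a lowest, median and highest value of 484, 655.5 and 832 at 6 weeks and of 370, 533 and 627 at 10 weeks. The means were 663 ± 134 (SD, n = 6) and 506 ± 85.2 (SD, n = 7), and 4 of 6 rats at 6 weeks exceeded every 10-week rat. The log2 fold change was 0.38 ± 0.16 (SE), with a 95% interval of 0.05 to 0.72 and limma's adjusted p = 0.111. Within each set of rats the ages did not overlap, at 628 to 832 against 533 to 627 in the larger set and 484 to 558 against 370 to 472 in the smaller. As for *Dnmt3a*, this is a description, and the share of all genes without overlap inside the sets was not counted. With the set as a term, which narrows the variation as said for *Dnmt3a*, the log2 fold change was 0.34 and limma's adjusted p = 0.0288. In the larger set alone it was 0.37 with limma's adjusted p = 0.066. In the smaller set it was 0.29 with limma's adjusted p = 0.543, so *Tdg* was DE in neither set.

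The count of DE genes among the 9 thus depended on how the unlabelled variation was treated. It was 4 within the larger set, where 23.5% of all genes were DE, 5 with the set as a term, where 22.5% were, and 6 with the first residual component in the model, where 23.8% were. Limma's sample quality weights gave 6 of the 9 genes, beside 38.2% of all genes. *Dnmt1*, *Uhrf1* and *Tet2* were DE, in the same directions, in all of these fits. That is no independent check, because the component and the sets were drawn from the spread within the ages of these same values. Fitting the residual component left every log2 fold change as it was and narrowed the spread. None of the 9 genes was DE in the smaller set alone, and *Tet2* was DE in 7 of the 13 fits that left out 1 rat.

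**Figure D3:**
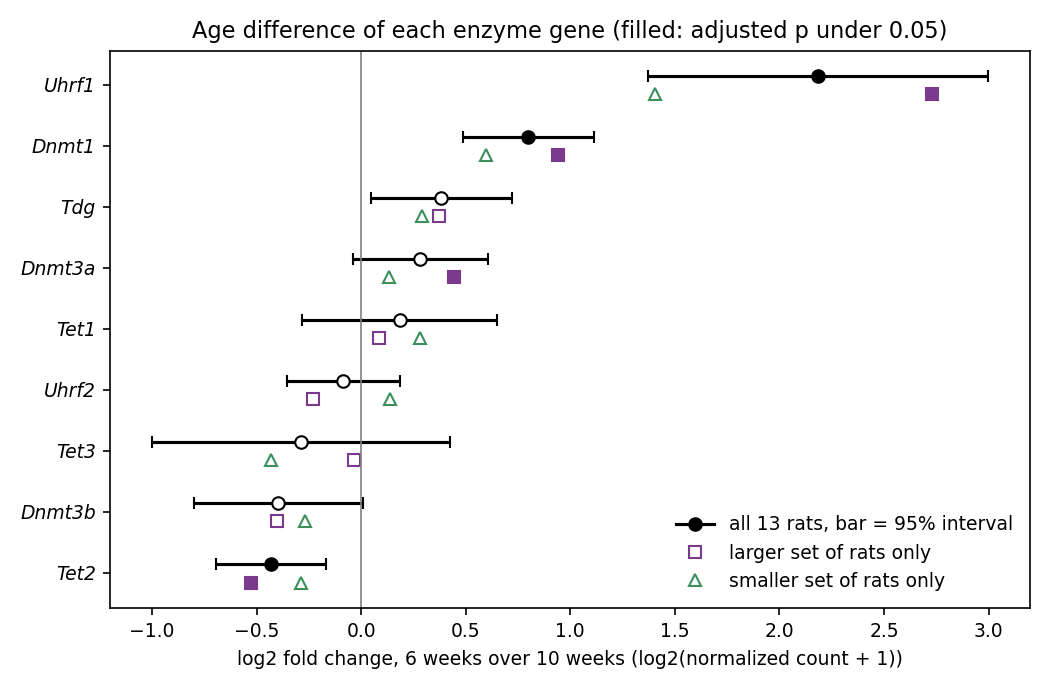
Log2 fold change (6 weeks over 10 weeks, x axis) of each of the 9 genes (y axis) over all rats, with its 95% interval, and in the larger and smaller sets of rats alone. The intervals of *Dnmt1*, *Uhrf1*, *Tet2* and *Tdg* over all rats do not reach 0, and that of *Tdg*, at 0.05 to 0.72, did not pass after adjustment.

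Ratios between genes of the same rat do not depend on how the library was scaled. Log2 ratios of 5 pairs, of log2(normalized count + 1), were compared between the ages with an exact permutation test over the 13 rats, two-sided, adjusted over the 5 pairs. The age difference of each ratio equals the difference between the log2 fold changes of its genes, so a pair with a DE gene repeats that gene's change. Only the pair of *Dnmt3b* and *Dnmt3a* holds no gene that was DE over all rats. *Dnmt1* was higher relative to *Dnmt3a* within WOS, the log2 ratio of *Dnmt1* to *Dnmt3a* being 0.21 ± 0.22 (SD, n = 6) against -0.31 ± 0.33 (SD, n = 7). The difference was 0.52 (exact permutation p = 0.00175, adjusted p = 0.00437), and 5 of 6 rats at 6 weeks exceeded every 10-week rat. The log2 ratio of *Dnmt3b* to *Dnmt3a* was -2.10 ± 0.21 at 6 weeks and -1.42 ± 0.23 at 10 weeks, a difference of -0.68 (exact permutation p = 0.00117, adjusted p = 0.00437), with 5 of 6 rats at 6 weeks below every 10-week rat. Neither of the de novo genes was DE over all rats, while their ratio differed. The thresholds are not alike, since limma's p was adjusted over all 14790 genes and the permutation p over 5 pairs.

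The log2 ratio of *Uhrf1* to *Uhrf2* was -2.97 ± 0.48 at 6 weeks and -5.24 ± 1.11 at 10 weeks, a difference of 2.27 (exact permutation p = 0.00408, adjusted p = 0.0068), with rat 81 at -3.11 within the range of the 6-week rats. For *Tet1* to *Tet2* the values were -4.11 ± 0.61 and -4.72 ± 0.14, a difference of 0.62 (exact permutation p = 0.0239, adjusted p = 0.0299). Here 5 of 6 values at 6 weeks were above and that of rat 75, at -5.21, was below every 10-week rat, and the adjusted p passed 0.05, up to 0.0726, without rat 70, 80, 84, 86, 81, 83 or 87. The log2 ratio of *Tet3* to *Tet2* was -1.02 ± 0.53 and -1.17 ± 0.81, a difference of 0.14 (exact permutation p = 0.709, adjusted p = 0.709).

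**Figure D4:**
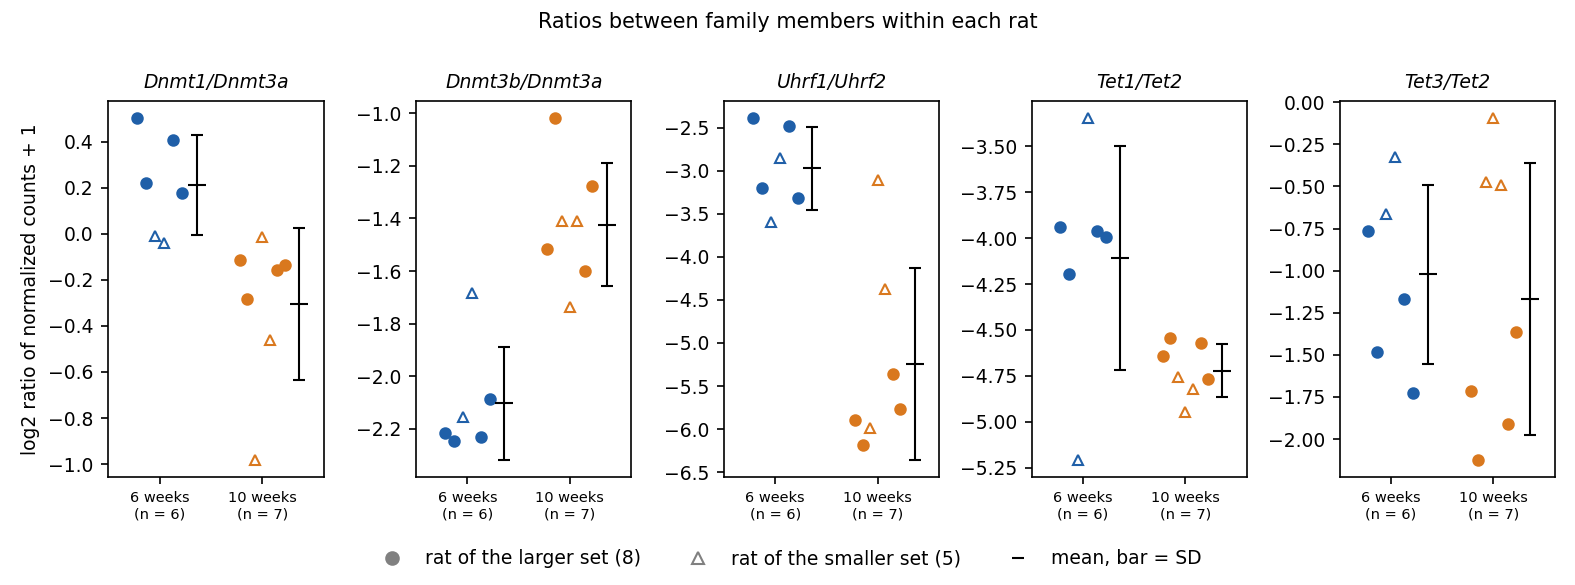
Within-rat log2 ratios of 5 pairs of genes (y axis) in every rat at 6 and 10 weeks (x axis), with bars for mean ± SD and marker shapes for the sets of rats. The *Dnmt3b* to *Dnmt3a* ratio lies lower and the *Dnmt1* to *Dnmt3a* ratio higher at 6 weeks, in 5 of 6 rats beyond every 10-week rat, and the *Tet3* to *Tet2* ratios overlap.

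The proteins that work with these enzymes were followed in 5 further lists. Of 11 maintenance partners in the table, *Cdca7l* and *Lig1* were higher at 6 weeks and none was lower, with a median log2 fold change of 0.12. The share of all genes called was 8.71% higher at 6 weeks and 16.1% in either direction, and 2 of 11 is near the latter. *Cdca7l*, related to an activator of chromatin remodelling, had 61 to 108 normalized counts at 6 weeks and 26 to 60 at 10 weeks, with a log2 fold change of 1.11 ± 0.20 (SE) and limma's adjusted p = 0.00296. *Lig1*, the DNA ligase of replication, had 356 to 522 and 213 to 381, with a log2 fold change of 0.68 ± 0.14 (SE) and limma's adjusted p = 0.00833. *Cdca7* and *Ehmt1*, next by p, were at 0.51 and -0.21 and were not DE. *Pcna*, the sliding clamp at the replication fork that also binds DNMT1, was at 0.12 and was not DE (limma's adjusted p = 0.548).

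Of 22 base excision and TET partner genes, 3 were higher at 6 weeks, 1 was lower and 18 were not DE, with a median log2 fold change of 0.25. A count of 4 of 22 is likewise near the 16.1% of all genes called. *Idh2*, the mitochondrial enzyme that makes 2-oxoglutarate, the co-substrate of TET enzymes, had 233 to 640 normalized counts against 101 to 320, a log2 fold change of 1.14 ± 0.30 (SE) with limma's adjusted p = 0.0231. It was DE in 11 of 13 fits that left out 1 rat, and not without rat 70 or 84 (limma's adjusted p = 0.0555 and 0.0561). *Parp1*, *Neil3* and *Lig3*, genes of strand-break sensing, base removal and ligation, had log2 fold changes of 0.37, 2.40 and -0.40, and were DE in 3, 2 and 2 of those 13 fits, namely without rat 80, 86 or 81, without rat 80 or 83, and without rat 84 or 81, with an adjusted p of at most 0.0954, 0.0922 and 0.0911 in the others. *Neil3* was at 0 to 24 normalized counts against 0 to 4, near the lowest values that can be seen, and *Lig3* lost its call when the libraries were scaled to equal totals (limma's adjusted p = 0.10).

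Methyl groups for all DNMT enzymes come from S-adenosylmethionine. Of 20 genes of its supply, 4 were higher and 1 lower at 6 weeks, with a median log2 fold change of 0.17, beside 8.71% and 7.39% of all genes called in these directions. The genes of methionine adenosyltransferase, which makes S-adenosylmethionine, moved in opposite directions. *Mat1a*, the catalytic subunit typical of liver, had 24 to 56 normalized counts at 6 weeks and 10 to 19 at 10 weeks, a log2 fold change of 1.51 ± 0.20 (SE) with limma's adjusted p = 0.00049. *Mat2a*, the catalytic subunit of most other tissues, had 4519 to 7084 at 6 weeks and 8028 to 12727 at 10 weeks, a log2 fold change of -0.84 ± 0.15 (SE) with limma's adjusted p = 0.00245. For both genes the ages did not overlap and the call held in all 13 fits that left out 1 rat. *Mat2b*, the regulatory subunit, was higher at 6 weeks, at 471 to 651 against 299 to 486, with a log2 fold change of 0.57 ± 0.14 (SE) and limma's adjusted p = 0.0184. *Cbs*, which draws homocysteine away from methionine, was also DE, at 0.79 (limma's adjusted p = 0.0456) and was DE in 3 of 13 such fits, those without rat 80, 86 or 78 (adjusted p up to 0.107 in the others). It is named here after its value was seen.

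None of 10 methyl-CpG readers was DE, with a median log2 fold change of -0.11. Among them *Mbd2*, *Zbtb4* and *Mbd4* had log2 fold changes of -0.29, -0.35 and 0.45, and limma's adjusted p was 0.107 for *Mbd2*. Among 6 CXXC proteins, which bind unmethylated CpG islands, *Kmt2a* and *Kdm2b* were lower at 6 weeks, beside 7.39% of all genes, and the median log2 fold change was -0.22. *Kmt2a*, a histone methyltransferase, was at 3169 to 5535 against 5137 to 7109 with a log2 fold change of -0.46 (limma's adjusted p = 0.0411), and *Kdm2b*, a histone demethylase, at 207 to 317 against 261 to 370 with a log2 fold change of -0.38 (limma's adjusted p = 0.0489). They were DE in 4 and 2 of the 13 fits that left out 1 rat, without rat 75, 80, 81 or 85 and without rat 70 or 81 (adjusted p up to 0.0891 and 0.0969 in the others), and neither was DE when the libraries were scaled to equal totals (limma's adjusted p = 0.0715 and 0.148). *Kmt2b* and *Cxxc1* were at -0.42 and 0.25 and were not DE.

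**Figure D5:**
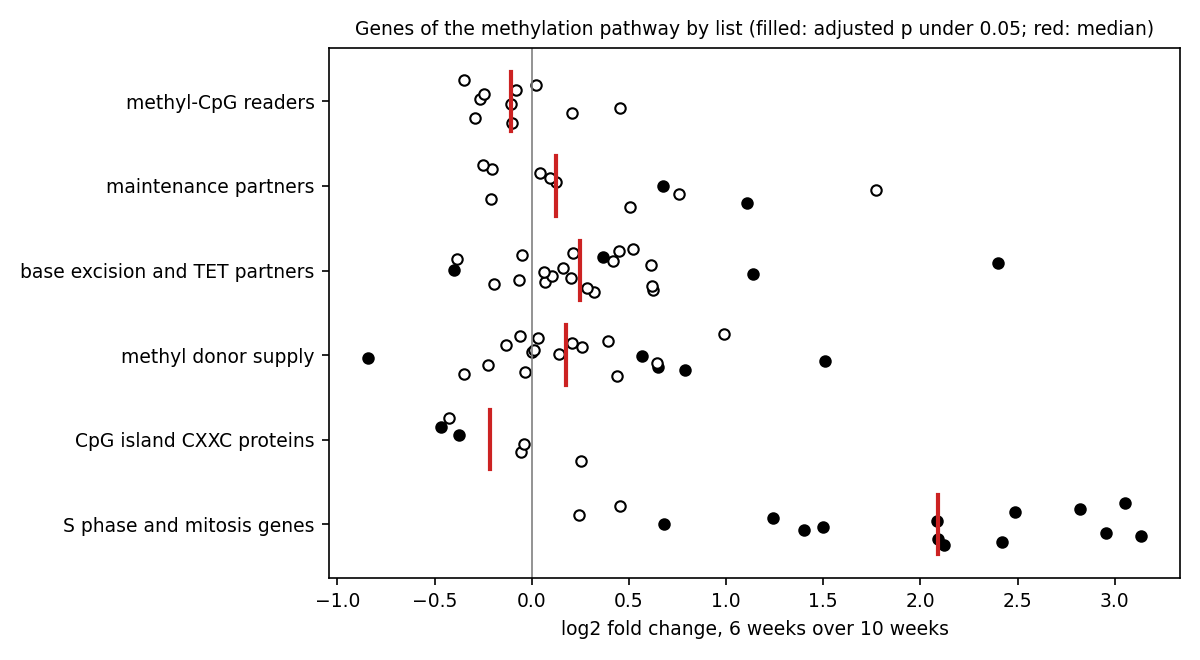
Log2 fold change (6 weeks over 10 weeks, x axis) of every gene of the 6 lists (y axis), filled where limma's adjusted p was under 0.05, with a bar at the median of each list. The S phase and mitosis genes lie to the right, with a median of 2.09, and the medians of the other lists lie between -0.22 and 0.25.

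The genes whose values over the rats were most like those of each DE gene were found among 10744 genes with a mean of at least 50, by Pearson's r over the 13 rats with age means subtracted. These values are a description, and the points share the sets of rats and the depth of their libraries. The 8 rats of the larger set are among the 13 used to pick the genes, so their r is no separate check. For *Dnmt1* they were *Vwa2*, *Prom2* and *Acads*, at r of 0.957, 0.926 and 0.917, and 0.863, 0.907 and 0.822 in the 8 rats of the larger set. For *Uhrf1* they were *Vwa2*, *Pdzrn3* and *Mcm2*, at 0.968, 0.929 and 0.925, and 0.878, 0.970 and 0.887 in the larger set. *Vwa2* headed both lists, and it was higher at 6 weeks, with a log2 fold change of 1.07 and limma's adjusted p = 0.010. *Mcm2*, a subunit of the replicative helicase, and *Pdzrn3* were also higher at 6 weeks. *Prom2* and *Acads* were not DE (limma's adjusted p = 0.143 and 0.0972). For *Tet2* they were *RGD1562161*, *Brwd1* and *Ahcyl1*, at 0.961, 0.948 and 0.944, and 0.984, 0.986 and 0.965 in the larger set. Of these *Brwd1* was DE and, like *Tet2*, lower at 6 weeks, with a log2 fold change of -0.77 and limma's adjusted p = 0.00115.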

How the data were processed

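RNA-seq of mammary epithelial cells from 13 rats was used, with 1 library per rat, 6 at 6 weeks and 7 at 10 weeks. The authors estimated gene counts with RSEM 1.2.22. That each library was then scaled and rounded is inferred here from the values. The unit of the deposited per-rat values is thus taken as a score, called the normalized count. The submitters' processing notes name rn5 and the paper rn6, and the annotation is not given in the sources used here. Also deposited by the authors is their edgeR comparison of the ages (log2 fold change and abundance, a likelihood-ratio score, p-value, false discovery rate and −log10 p) and a column on nuclear or cytoplasmic location, and none of these was used. A count model was not used, because the values do not look like raw counts. Between 1 and 30, some whole numbers never occur in 7 of the rats. The depth before scaling thus appears to have differed between rats, and low values are coarser in those 7.

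The ages were compared with limma 3.58.1 (R 4.3.3), without covariates. The input was log2(normalized count + 1) of genes whose mean reached 1, which all 14790 did. P-values are two-sided, adjusted after Benjamini-Hochberg over all genes, with a threshold of 0.05, and measure the spread between rats. The limma script was tested on simulated data without variation shared between genes, so that test does not cover the parting of the rats into sets. Ratios were tested in Python 3.11.15 by exact permutation over 1716 arrangements, with a smallest possible p of 0.00058. The 9 genes, the lists and the markers were chosen with earlier results of these data known. Named were all 9 genes, the 4 genes of each list with the smallest p, and the 3 genes most like each DE gene, some of which are not reported here. Of the listed genes, *Dppa3*, *Dnmt3l*, *Neil2* and *Bhmt* were not in the table used here. Alternatives were other scalings, a pseudocount of 0.1, other minimums, limma-trend, sample weights, leaving out each rat, and the residual component or the sets of rats. The set as a term was added after the data had been seen.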

Additional observations from a re-analysis of the deposited data

How the results depend on the processing

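Over 117 values of the 9 genes under the alternatives other than leaving out a rat, 104 kept their direction and side of the threshold, 9 came to pass it and 3 no longer passed it. The 3 were *Dnmt1*, *Uhrf1* and *Tet2* in the smaller set of rats, and *Uhrf2* changed sign there, to 0.14. In that set, of 2 and 3 rats, limma called 0 genes in either direction (1976 at an unadjusted p under 0.05), and so 0 of the 9 genes and 0 list genes, with fewer rats to test. The 104 include values that could not change direction. Other minimums, limma-trend and the residual component left each fold change as it was, and having no minimum repeated the main fit. The tally also omits the fits that left out 1 rat, in which *Tet2* was DE in 7 of 13. Sample quality weights called 5647 genes, 3009 higher at 6 weeks and 2638 at 10 weeks, against 2381, 1288 and 1093. The larger set called 2003 higher at 6 weeks, and the residual component as a term 1651 higher at 10 weeks. Of the 9 genes, 2 were higher at 6 weeks and 1 at 10 weeks. These counts were 4 and 2 with weights and with the residual component, and the first was 4 with the set as a term. Of genes of the lists other than S phase, 9 were higher at 6 weeks and 4 at 10 weeks. These became 24 and 9 with weights, the first 21 in the larger set, and the second 1 when libraries were scaled to equal totals, which moved the median of all genes from 0.03 to 0.07. The cause was not tested.

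Leaving out 1 rat gave 1411 to 2680 DE genes, 803 to 1461 higher at 6 weeks and 608 to 1219 at 10 weeks, fewest without rat 70 and most without rat 81. Of the 9 genes it gave 2 higher at 6 weeks in every fit and 0 to 1 higher at 10 weeks. List genes numbered 4 to 12 higher at 6 weeks, with 4 to 6 without rat 70, 71, 75, 84, 72, 74, 85 or 87, and 1 to 4 at 10 weeks. The difference in log2 ratio was 0.40 to 0.57 for *Dnmt1* to *Dnmt3a*, -0.76 to -0.61 for *Dnmt3b* to *Dnmt3a*, 2.11 to 2.63 for *Uhrf1* to *Uhrf2*, 0.46 to 0.84 for *Tet1* to *Tet2*, and -0.014 (without rat 74) to 0.32 for *Tet3* to *Tet2*. No paired analysis was possible because the rat numbers are not shared between the ages. Low values, such as those of *Uhrf1* and *Neil3* at 10 weeks, are coarse at this depth.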
